A study of Homo sapiens with 6 samples.

Results

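The genes of fibroblast growth factor (FGF) signalling were followed in H9 human embryonic stem cells, an established cell line, and in the arcuate-type hypothalamic neurons made from them in culture. Genes were chosen by symbol and by no cut-off on their values, but with earlier results of these data known. The set held 42 protein-coding genes out of 61853 entries of the deposited count table. It took in the 22 FGF genes, the receptors FGFR1 to FGFR4 and FGFRL1, the docking proteins FRS2 and FRS3, the inhibitors SPRY1 to SPRY4, SPRED1 to SPRED3, DUSP4, DUSP6 and IL17RD, and the transcription factors ETV1, ETV4 and ETV5. The neurons were taken on day 30 of differentiation (3 libraries) and compared with undifferentiated H9 cells on day 0 (3 libraries), both with no genetic change named in the labels. Per the labels' protocols, the differentiating cultures received sonic hedgehog, purmorphamine (which activates the hedgehog receptor pathway), SB431542 and LDN-193189 (inhibitors of activin/TGF-beta and BMP receptors) to day 8, B-27 supplement and the Notch pathway inhibitor DAPT from day 9, a ROCK inhibitor at replating on day 12, and brain-derived neurotrophic factor at 20 ng/ml from day 17. No FGF is named among the added factors, and the full make-up of the media is not stated. Nothing in the labels says whether replicates were separate cultures, so p-values measure the spread between these libraries, which may be technical. All cells come from 1 line.

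Total counts ranged from 5013643 to 12924842 in day 30 libraries and from 7178453 to 8794008 in day 0 libraries. Levels are given as CPM, counts scaled to the library total with TMM factors, and as RPKM (CPM per kilobase of merged exons) where genes are compared with each other. The labels' cell types were compared with marker genes. These lists were chosen with earlier results of these data known, so their agreement is no independent check. All 9 neuronal markers were higher on day 30 and all 9 pluripotency markers lower, and of the 11 hypothalamic and arcuate markers all 8 that could be tested were higher, with POMC at 1110 to 1760 CPM on day 30 and 0.735 to 1.16 CPM on day 0. AGRP, NPY and RAX, also on that list, held at most 0.827 CPM in any library. Day 30 replicate 3 stood apart in the mesenchymal markers, whose summed level over 8 genes ran from 172 to 4360 CPM across the day 30 libraries and from 237 to 342 CPM on day 0. Oligodendroglial, endothelial and endodermal markers summed to at most 57.8, 6.76 and 1.88 CPM on day 30, below their day 0 sums. These are bulk libraries, in which fewer cells of a type and less RNA per cell cannot be told apart.

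FGFs are signalling proteins that bind receptor tyrosine kinases together with heparan sulfate. The receptors act through the docking protein FRS2 and the RAS and ERK kinases, and ERK in turn switches on ETV transcription factors and a set of inhibitors (sprouty, SPRED and DUSP proteins) that damp the signal. In human pluripotent stem cells FGF2 is the ligand commonly supplied to keep cells undifferentiated. The FGF homologous factors FGF11 to FGF14 are relatives that are not secreted and bind voltage-gated sodium channels in neurons.

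Promoter sequences are shown for the 3 sprouty genes that were tested, feedback targets of ERK, and for the 3 FGF homologous factors that were higher on day 30. They come from RefSeq (GRCh38.p14), run 5′ to 3′ on the gene's strand from 250 bases before to 50 after a start site, and were found for 31 of the 42 genes; DUSP4, ETV4, ETV5, FGF4, FGF8, FGF9, FGF16, FGF17, FGF19, FGF20 and FGFR1 had none in that table. Capitals in the sprouty promoters mark CAGGAAG or CCGGAAG, motifs of the ETS family to which ETV factors belong, and capitals in the promoters of the homologous factors mark CAGCTG, an E-box. Both strands were searched and none of the marked motifs overlap.
SPRY1 (chr4:123398136-123398435, plus strand): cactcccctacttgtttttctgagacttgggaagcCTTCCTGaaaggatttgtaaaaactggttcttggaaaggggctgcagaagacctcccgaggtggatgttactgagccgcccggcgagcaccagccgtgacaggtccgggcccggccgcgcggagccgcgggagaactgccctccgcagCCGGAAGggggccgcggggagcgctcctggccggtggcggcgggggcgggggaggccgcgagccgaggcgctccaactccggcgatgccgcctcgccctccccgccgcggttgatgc
SPRY2 (chr13:80339610-80339909, minus strand): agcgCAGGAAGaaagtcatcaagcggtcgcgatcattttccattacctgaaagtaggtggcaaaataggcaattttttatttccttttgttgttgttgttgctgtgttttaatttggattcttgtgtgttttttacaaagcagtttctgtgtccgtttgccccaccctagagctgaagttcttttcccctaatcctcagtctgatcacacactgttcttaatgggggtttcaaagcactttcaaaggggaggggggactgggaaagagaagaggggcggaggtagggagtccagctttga
SPRY4 (chr5:142324198-142324497, minus strand): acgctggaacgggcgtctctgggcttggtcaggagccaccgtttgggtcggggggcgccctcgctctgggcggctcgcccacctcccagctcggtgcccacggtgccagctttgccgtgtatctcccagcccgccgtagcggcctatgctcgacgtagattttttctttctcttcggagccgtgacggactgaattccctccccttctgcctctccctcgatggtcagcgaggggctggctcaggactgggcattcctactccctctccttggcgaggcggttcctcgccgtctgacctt
FGF12 (chr3:192727492-192727791, minus strand): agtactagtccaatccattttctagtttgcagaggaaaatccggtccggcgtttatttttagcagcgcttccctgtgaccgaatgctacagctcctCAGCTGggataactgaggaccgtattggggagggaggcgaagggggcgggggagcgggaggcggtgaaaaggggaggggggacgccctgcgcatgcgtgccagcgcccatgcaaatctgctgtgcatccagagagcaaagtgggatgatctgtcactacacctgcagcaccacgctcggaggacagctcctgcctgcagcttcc
FGF13 (chrX:138739304-138739603, minus strand): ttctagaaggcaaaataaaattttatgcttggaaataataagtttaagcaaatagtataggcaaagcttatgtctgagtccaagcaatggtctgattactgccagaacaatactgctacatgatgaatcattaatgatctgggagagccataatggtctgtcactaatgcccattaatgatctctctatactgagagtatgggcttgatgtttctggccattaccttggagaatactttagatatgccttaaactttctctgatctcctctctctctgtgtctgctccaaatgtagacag
FGF14 (chr13:101916896-101917195, minus strand): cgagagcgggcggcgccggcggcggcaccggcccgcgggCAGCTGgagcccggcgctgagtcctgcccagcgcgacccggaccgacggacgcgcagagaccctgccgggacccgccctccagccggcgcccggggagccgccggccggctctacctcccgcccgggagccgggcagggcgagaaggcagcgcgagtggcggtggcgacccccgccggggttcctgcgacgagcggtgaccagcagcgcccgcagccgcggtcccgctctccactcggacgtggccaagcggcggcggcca
The SPRY1 window held 1 match to each ETS motif, the SPRY2 window 1 match to CAGGAAG, and the SPRY4 window none. FGF12 and FGF14 each held 1 match to CAGCTG, and FGF13 held none in either of its 2 windows, of which the one at the lower coordinate is shown. SPRY3, not tested and not shown, has a window with CAGGAAG. Where another gene had several start sites (2 for SPRY1, 3 for SPRY2, 2 for FGF12 and 4 for FGF14) the window with most matches is shown, and counts per gene do not tell which start was used. CAGGAAG occurred in 7 of 61 promoter windows of the FGF pathway genes and in 12.7% of all 34796 windows, CCGGAAG in 2 of 61 and 10.2%, and CAGCTG in 10 of 61 and 17.9%. A match is a string of letters and not a shown binding site.

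Of the 42 genes, 31 held enough reads to be tested, and 27 of these differed between the days (edgeR quasi-likelihood test, Benjamini-Hochberg adjusted p under 0.05 over all genes). On day 30, 12 were higher and 15 lower, and 11 of each were so by 2-fold or more. Without day 30 replicate 3 the counts were 11 and 13. The background was high, since 76.6% of all 18040 genes tested passed, 39.8% higher and 36.8% lower, against 87.1% of the tested FGF pathway genes. By 2-fold or more, 5373 of the 18040 genes were higher and 4467 lower. CPM ranges of the days did not overlap for 26 of the 31 genes, against 79.5% of all genes tested. The median log2 change (day 30 over day 0) was −0.29 for the 31 genes and 0.08 for all genes tested. By role, all 5 receptors and all 3 ETV factors were lower, 3 of 4 FGF homologous factors were higher, and the secreted ligands and the inhibitors held genes of both directions.

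**Figure D1:**
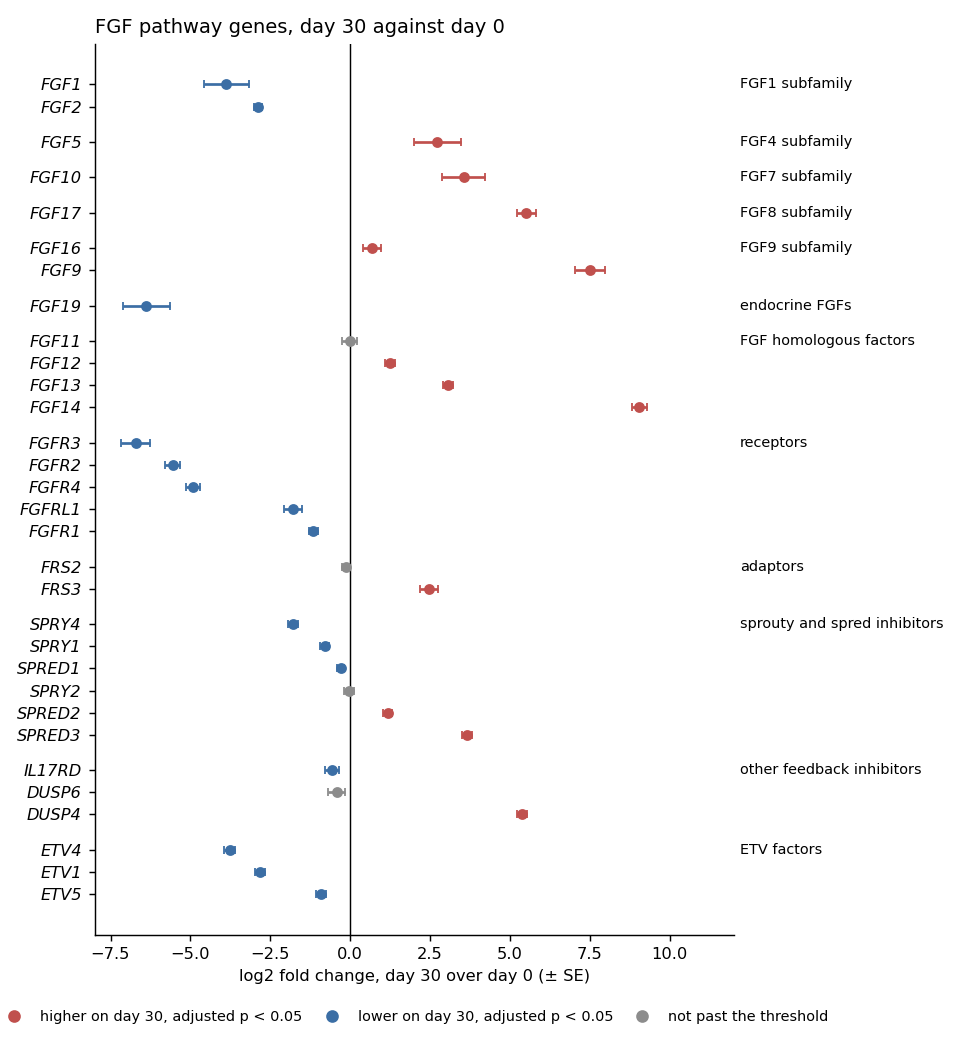
Log2 fold change of day 30 over day 0 with its standard error for the 31 tested FGF pathway genes, in the order of their roles (red, higher; blue, lower; grey, did not pass). Receptors and ETV factors lie left of 0, and the changes run from −6.71 for FGFR3 to 9.05 for FGF14.

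FGF2, the ligand used to maintain human stem cells, had the highest level per kilobase of any FGF gene on day 0, at 40.3 RPKM. It lies on chromosome 4 at 122826708 to 122898236 (hg38, plus strand). FGF2 had 38.3, 38.3 and 34.6 CPM in the day 30 libraries, against 270, 246 and 303 CPM in the day 0 libraries. The libraries of a day lay close together and the days were far apart, a log2 change of −2.88 ± 0.12 (SE, adjusted p = 7.29e-09). Per kilobase of exon, FGF2 held 7.17% ± 0.542 of the signal of all FGF genes on day 30 and 73.7% ± 3.63 on day 0 (SD, n = 3), and the 2-sided exact permutation p of 0.1 is the lowest that this design can reach. FGF2 shares 804 exon bases with NUDT6 on the opposite strand, with 109 counts in all on day 30 and 113.5 on day 0. FGF1, the other member of its subfamily and a ligand of all FGF receptors, had 0.307, 0.376 and 0.188 CPM on day 30, against 2.28, 2.60 and 9.43 CPM on day 0. Its log2 change of −3.88 ± 0.70 (adjusted p = 0.000418) leaned on day 0 replicate 3, without which it was −2.92.

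FGF19, a hormone-like FGF that represses bile acid synthesis in the liver, was nearly confined to day 0, with 1 read in all on day 30 and 94 on day 0. With the libraries of each day pooled, the scaled level of day 0 was 116 times that of day 30 (95% counting interval 20.4 to 4640, which covers counting error only). The test called it lower, with an adjusted p of 1.43e-05. Its fitted log2 change was −6.38, −8.12 without day 30 replicate 1, which holds the single read, and −5.66 without day 30 replicate 2. FGF4, a ligand of the early embryo that lies 66.4 kb from FGF19 on chromosome 11, had 1 read on day 30 and 28 on day 0, a day 0 level 34.6 times that of day 30 (interval 5.72 to 1420). It was too scarce to be tested, and passed as lower when no filter on low counts was used (adjusted p = 7.76e-06). Adjusted p-values of that fit are not comparable with those of the main test. FGF3, 34.6 kb beyond FGF4, had no reads in any library.

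Other secreted ligands were higher on day 30. FGF9, first isolated as a factor that activates glia, had 27.6, 19.1 and 34.2 CPM in the day 30 libraries, against 0.254, 0.145 and 0 CPM in the day 0 libraries. It held 705 reads on day 30 and 3 on day 0, a level 190 times higher on day 30 (95% counting interval 64.8 to 924). The fitted log2 change was 7.52 ± 0.47 (adjusted p = 1.08e-07), 8.33 without day 0 replicate 1 and 6.92 without day 0 replicate 3. FGF17, which with FGF8 patterns the midbrain and forebrain of the mouse, had 17.5, 16.5 and 22.2 CPM on day 30, against 0.508, 0.289 and 0.367 CPM on day 0. All day 30 libraries were far above all day 0 libraries, a log2 change of 5.51 ± 0.30 (adjusted p = 4.28e-08). FGF8 itself was scarce, with 4 reads on day 30, all in replicate 2, and 16 on day 0, and was not tested.

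FGF10, made in mice by tanycytes of the hypothalamus, had 4.30, 3.61 and 1.32 CPM on day 30, against 0, 0.579 and 0.245 CPM on day 0. The ranges did not overlap, and the log2 change was 3.55 ± 0.68 (adjusted p = 0.000651), 2.94 without day 0 replicate 1 and 4.52 without day 0 replicate 2. FGF5, which limits hair growth, had 1.49, 1.58 and 3.95 CPM on day 30, against 0.254, 0.723 and 0 CPM on day 0, for a log2 change of 2.73 ± 0.74 (adjusted p = 0.00595). This value was 3.93 without day 0 replicate 2 and 2.11 without day 0 replicate 3. FGF5 shares 136 exon bases on the same strand with CFAP299, which had 11 counts on day 30 and none on day 0. FGF16, a ligand of the FGF9 subfamily, had 6.04, 5.41 and 4.88 CPM on day 30, against 3.55, 4.48 and 2.20 CPM on day 0. Its call was marginal, at a log2 change of 0.69 ± 0.29 (adjusted p = 0.0498), and did not hold under 11 of the 14 alternative settings, where the adjusted p reached 0.174.

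Summed per kilobase, FGF genes other than the homologous factors stood at 23.1 ± 2.31 RPKM on day 30 and 46.8 ± 2.97 RPKM on day 0 (SD, n = 3, with an exact permutation p of 0.1). With FGF2 left out, the same sum was 17.7 ± 2.51 RPKM on day 30 and 6.53 ± 1.26 RPKM on day 0 (exact permutation p = 0.1). On day 30 no single ligand held most of the first sum, which includes FGF2. FGF9 made up 25.4% ± 5.01, FGF17 24.6% ± 2.73 and FGF2 23.9% ± 3.51 of that sum. These shares did not differ beyond their spread. On day 0 FGF2 alone made up 85.9% ± 3.56.

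**Figure D2:**
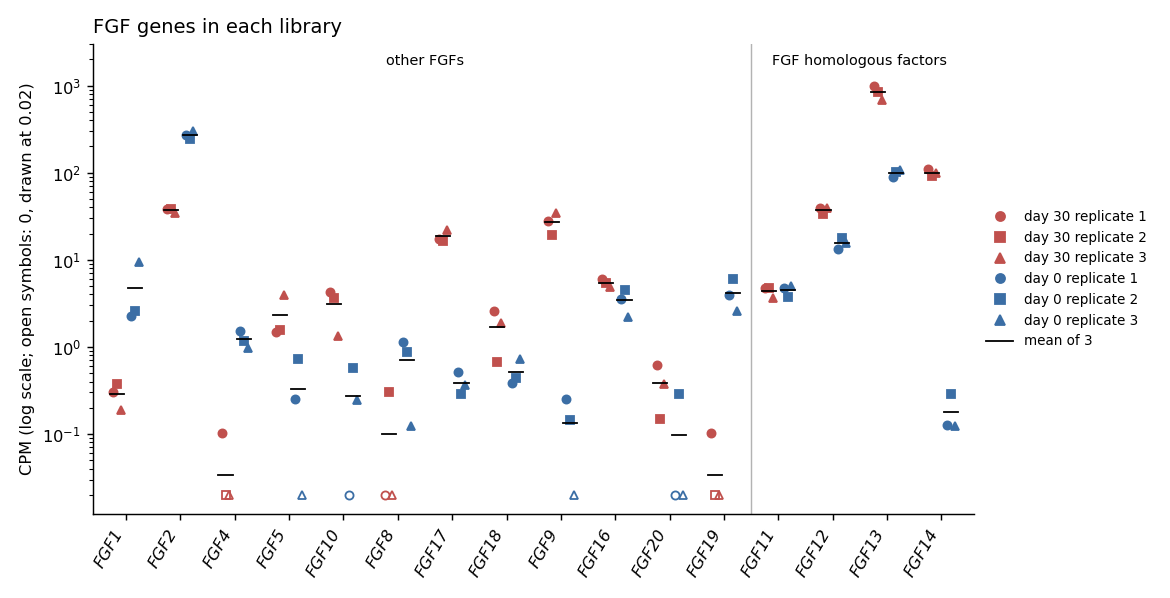
CPM of 16 FGF genes in each library on a log scale, day 30 (red) left of day 0 (blue), with the mean of 3 libraries as a line; a value of 0 is drawn at 0.02. FGF2 and FGF19 sit higher in the day 0 libraries, and FGF9, FGF17, FGF13 and FGF14 in the day 30 libraries.

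Among the FGF homologous factors, FGF13 had the highest level per kilobase of any FGF gene on day 30, at 40.4 ± 7.42 RPKM, and FGF14 had the largest rise of the 31 tested genes. FGF13 (chromosome X, 138614731 to 139222777, minus strand) encodes a sodium channel partner that also binds microtubules. It had 979, 853 and 674 CPM in the day 30 libraries, against 90.1, 102 and 108 CPM in the day 0 libraries, a log2 change of 3.06 ± 0.16 (adjusted p = 2.68e-08). The spread on day 30 was wide, with replicate 3 lowest, but every day 30 library was far above every day 0 library. FGF14 (chromosome 13, 101710804 to 102402457, minus strand), which regulates firing of cerebellar neurons and is mutated in a spinocerebellar ataxia, had 110, 91.5 and 99.2 CPM on day 30, against 0.127, 0.289 and 0.122 CPM on day 0. The log2 change was 9.05 ± 0.24 (adjusted p = 7.7e-10), from 2819.5 counts on day 30 and 4 on day 0. ITGBL1, on the opposite strand, shares 4354 exon bases with FGF14 and held 81.5 counts on day 30 and 1 on day 0.

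FGF12, another sodium channel partner, had 38.9, 33.4 and 39.1 CPM on day 30, against 13.2, 17.8 and 15.7 CPM on day 0, for a log2 change of 1.25 ± 0.15 (adjusted p = 2.03e-05). FGF11 had 4.71, 4.80 and 3.60 CPM on day 30, against 4.78, 3.69 and 4.94 CPM on day 0, and did not pass (log2 value −0.02 ± 0.25, adjusted p = 0.94). The sign of FGF11 turned with total counts only and when day 30 replicate 3 or day 0 replicate 3 was left out. Its value is uncertain, as 4175 of its 5565 exon bases are shared with AC113189.4 on the same strand, whose reads divide with it. Per kilobase the homologous factors made up 69.6% ± 4.05 of all FGF signal on day 30 and 14.2% ± 1.12 on day 0 (mean ± SD, n = 3, exact permutation test, p = 0.1). Within the homologous factors, FGF13 held 75.2% ± 3.46 on day 30 and 62.2% ± 1.01 on day 0, and FGF14 held 13.7% ± 1.76 on day 30 and 0.167% ± 0.0831 on day 0.

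The sodium channel alpha subunits, which form the pore and are the partners of these factors, are 9 genes of which 8 were tested, and 6 were higher and 2 lower on day 30 (median log2 change 3.41, against 0.08 for all genes, of which 39.8% were higher and 36.8% lower). SCN3A, the subunit of developing neurons, had the largest rise, with 472 ± 12.7 CPM on day 30, against 0.22 ± 0.0839 CPM on day 0 (SD, n = 3), a log2 change of 10.99 ± 0.20 (adjusted p = 3.83e-10). SCN4A, the skeletal muscle subunit, had the largest fall, with 1.72 ± 0.395 CPM on day 30, against 6.31 ± 2 CPM on day 0 (log2 change −1.81 ± 0.33, adjusted p = 0.000472).

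All 5 receptor genes fell, and the receptor make-up narrowed to FGFR1. FGFR1, on chromosome 8, had 117, 110 and 131 CPM in the day 30 libraries, against 319, 222 and 259 CPM in the day 0 libraries. FGFR1 shares 138 exon bases with LETM2 on the opposite strand, which had 333 counts on day 30 and 31 on day 0. It had the smallest fall of the receptors, a log2 change of −1.16 ± 0.14 (adjusted p = 2.52e-05). FGFR2 (chromosome 10, 121478334 to 121598458, minus strand), a receptor of epithelia and progenitors, had 2.97, 2.33 and 2.07 CPM on day 30, against 151, 99.4 and 102 CPM on day 0, for a log2 change of −5.55 ± 0.23 (adjusted p = 5.85e-09). FGFR3, a receptor known from cartilage and from astrocyte precursors, had 0, 0.301 and 0.939 CPM on day 30, against 39.3, 25.3 and 40.2 CPM on day 0. It was the furthest down of the 5, with 9 reads on day 30 and 813 on day 0. Its log2 change was −6.71 ± 0.45 (adjusted p = 2.16e-07), −7.54 without day 30 replicate 3 and −6.11 without day 30 replicate 1.

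FGFR4, the receptor through which FGF19 acts in liver, had 1.13, 0.827 and 1.32 CPM on day 30, against 32, 35.9 and 27.7 CPM on day 0, for a log2 change of −4.93 ± 0.22 (adjusted p = 1.13e-08). FGFRL1, which binds FGFs but lacks the kinase domain, had 3.79, 6.24 and 10.1 CPM on day 30, against 21.6, 20.7 and 24.7 CPM on day 0. The day 30 libraries were all below those of day 0 but differed among themselves, and the log2 change was −1.80 ± 0.28 (adjusted p = 0.000139). Summed per kilobase, FGFR1 to FGFR4 stood at 9.25 ± 0.858 RPKM on day 30 and 48.5 ± 8.17 RPKM on day 0 (mean ± SD, n = 3, exact permutation test, p = 0.1). FGFR1 made up 93.2% ± 0.442 of that sum on day 30 and 39.6% ± 1.06 on day 0, a difference of 53.6 percentage points (exact permutation p = 0.1). FGFR2 made up 3.54% ± 0.817 on day 30 and 31.7% ± 2.68 on day 0. Markers of dividing cells fell beside these receptors, while those of neural progenitors did not share 1 direction. All 6 markers of dividing cells were lower, with sums of 19.3 to 51.9 CPM on day 30, against 1470 to 1630 CPM on day 0. Of the 6 progenitor markers 4 were tested, SOX1 was higher, NES lower, and FABP7 and VIM did not pass (median log2 change 0.09). HES5 had no reads in any library. The sums, mostly NES and VIM, were 897 to 1090 CPM on day 30, against 1190 to 2060 CPM on day 0. The part of either in the receptor values was not tested. The size of the difference for FGFR1 depended on the length used, at 46.3 points with the longest transcript and 37.7 with counts not divided by length. FGFR1 has 13842 bases of merged exons but 6216 in its longest transcript, so its day 0 share is low per kilobase. By mean CPM it already led on day 0, at 267, against 117 for FGFR2, 34.9 for FGFR3 and 31.8 for FGFR4.

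**Figure D3:**
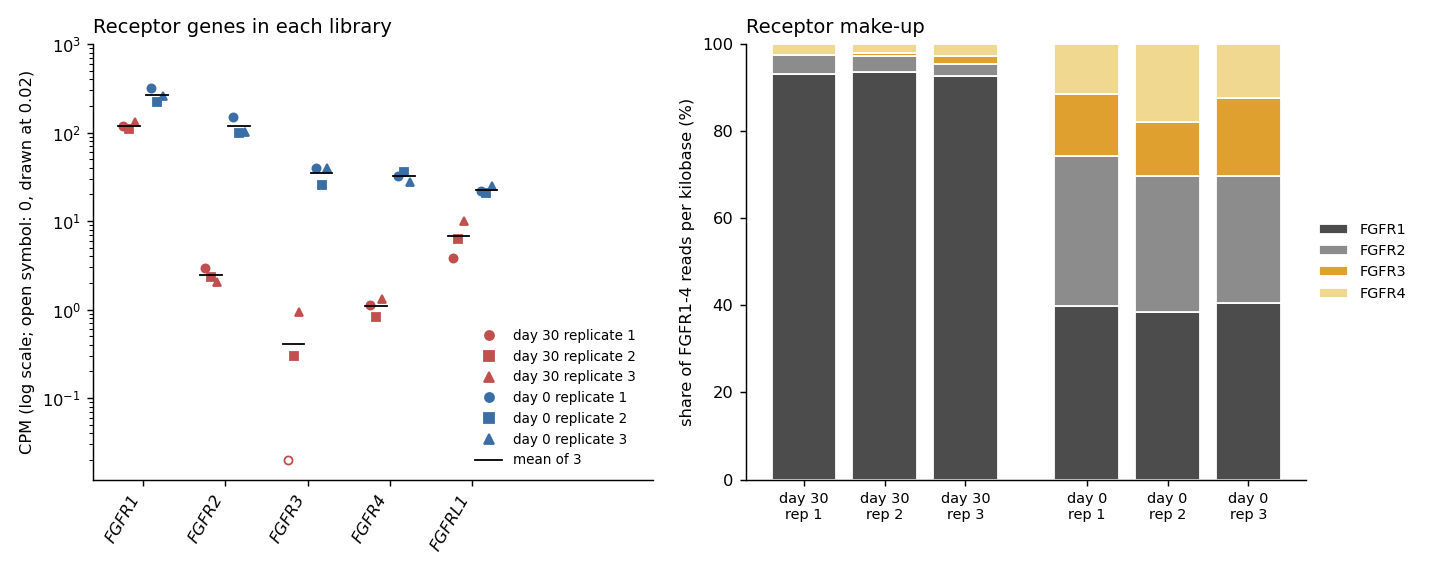
Left, CPM of the 5 receptor genes in each library on a log scale (day 30 red, day 0 blue, line for the mean of 3, 0 drawn at 0.02); right, share of each receptor in the summed reads per kilobase of FGFR1 to FGFR4, day 30 libraries left of day 0 libraries. FGFR1 takes 92.7% to 93.6% of the day 30 bars and 38.4% to 40.5% of the day 0 bars.

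The docking proteins that link receptors to RAS parted. FRS2, the broadly expressed form, had 43.2, 44.6 and 41.1 CPM on day 30, against 43.5, 45.1 and 51.4 CPM on day 0, and did not pass (log2 value −0.12 ± 0.12, adjusted p = 0.378). FRS3, its relative found mainly in neural tissue, had 14.2, 12.3 and 13.5 CPM on day 30, against 3.43, 2.02 and 1.71 CPM on day 0. FRS3 was higher in every day 30 library, a log2 change of 2.47 ± 0.27 (adjusted p = 9.06e-06). It shares 132 exon bases with AL365205.1 on the opposite strand, which had 345 counts on day 30 and 780.83 on day 0.

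Of the sprouty genes, inhibitors that act between receptor and RAS, SPRY4 had the largest fall. SPRY4 had 56.8, 59.5 and 55.2 CPM in the day 30 libraries, against 148, 238 and 206 CPM in the day 0 libraries, a log2 change of −1.79 ± 0.16 (adjusted p = 2.44e-06). SPRY1 had 16.4, 18.6 and 14.7 CPM on day 30, against 28.4, 28.3 and 30.3 CPM on day 0, for a log2 change of −0.80 ± 0.14 (adjusted p = 0.000332). SPRY2 had 35.5, 44.2 and 32.5 CPM on day 30, against 34.3, 37.5 and 43.8 CPM on day 0. Its ranges overlapped and it did not pass, at a log2 value of −0.03 ± 0.15 (adjusted p = 0.849) whose sign turned with total counts only and without day 30 replicate 3 or day 0 replicate 3. SPRY3 had 17 reads on day 30, 12 of them in replicate 1, and 2 on day 0, and was not tested. Per kilobase, SPRY4 made up 34.7% ± 2.47 of sprouty signal on day 30 and 59.6% ± 5.08 on day 0 (mean ± SD, n = 3, exact permutation test, p = 0.1).

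Of the SPRED genes, whose proteins bring the RAS inhibitor neurofibromin to the membrane, 2 were higher and 1 lower. SPRED3 had 56.3, 64.7 and 54.5 CPM on day 30, against 4.82, 4.77 and 4.29 CPM on day 0, for a log2 change of 3.66 ± 0.15 (adjusted p = 5.73e-09). SPRED2 had 49.6, 52.2 and 42.1 CPM on day 30, against 23.7, 19.2 and 21.3 CPM on day 0, for a log2 change of 1.17 ± 0.14 (adjusted p = 1.91e-05). SPRED1, at 81.4, 79.0 and 72.0 CPM on day 30, against 97.8, 87.4 and 98.4 CPM on day 0, was lower by a small margin. Its log2 change of −0.29 ± 0.11 (adjusted p = 0.0316) was lost with total counts only (adjusted p = 0.103), with no filter on low counts (0.11), with the replicate block (0.0728), and on leaving out replicate 2 or 3 of day 30 (0.0882 and 0.111) or replicate 3 of day 0 (0.0624). Summed per kilobase, SPRED1 to SPRED3 stood at 28.7 ± 2.31 RPKM on day 30 and 16.4 ± 1.13 RPKM on day 0, and SPRY1 to SPRY4 at 25.3 ± 2.82 RPKM on day 30 and 50.1 ± 7.97 RPKM on day 0 (mean ± SD, n = 3, exact permutation test, p = 0.1 for each). SPRED1 made up 32.8% ± 1.45 of the SPRED signal on day 30 and 69.9% ± 1.21 on day 0.

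DUSP4 and DUSP6 encode phosphatases that switch ERK off, DUSP4 in the nucleus and DUSP6 in the cytoplasm. DUSP4, on chromosome 8, had 331, 338 and 262 CPM in the day 30 libraries, against 6.60, 7.81 and 7.96 CPM in the day 0 libraries, a log2 change of 5.38 ± 0.16 (adjusted p = 1.22e-09). Of the 42 genes it had the highest RPKM on day 30, at 42.8 ± 5.78, against 1.03 on day 0; FGF13 was next on day 30 at 40.4 ± 7.42 RPKM, and the difference lay within the spread. DUSP6 had 82, 81.3 and 68.6 CPM on day 30, against 58.9, 146 and 105 CPM on day 0. The day 0 values lay on both sides of the day 30 values and DUSP6 did not pass (log2 value −0.42 ± 0.26, adjusted p = 0.159), but without day 0 replicate 1 it passed as lower, at −0.73 (adjusted p = 0.00208). Per kilobase, DUSP4 made up 71.9% ± 0.867 of the signal of this pair on day 30 and 4.86% ± 1.71 on day 0 (exact permutation p = 0.1). IL17RD (SEF), a transmembrane inhibitor of FGF receptors, had 96.5, 94.4 and 86.6 CPM on day 30, against 86.3, 158 and 170 CPM on day 0. It passed as lower (log2 change −0.57 ± 0.21, adjusted p = 0.0281) although the ranges overlapped. That call was lost on leaving out replicate 2 or 3 of day 30 (adjusted p = 0.0615 and 0.072) or replicate 2 or 3 of day 0 (0.0939 and 0.107).

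The ETV factors, ETS proteins of the PEA3 group that ERK induces, all fell. ETV4 (chromosome 17, 43527844 to 43579620, minus strand) had 5.22, 6.16 and 7.70 CPM on day 30, against 69.7, 96.3 and 90 CPM on day 0, for a log2 change of −3.77 ± 0.18 (adjusted p = 1.81e-08). ETV1 had 14.5, 13.8 and 13.7 CPM on day 30, against 83.8, 117 and 99.8 CPM on day 0, for a log2 change of −2.83 ± 0.15 (adjusted p = 3.01e-08). ETV5 had 22.7, 25.4 and 26.3 CPM on day 30, against 35.7, 46.7 and 57.6 CPM on day 0. ETV5 fell least of the 3, by 0.91 on the log2 scale (SE 0.17, adjusted p = 0.000612), and made up 57.0% ± 1.12 of their signal per kilobase on day 30 and 19.0% ± 2.55 on day 0 (exact permutation p = 0.1). ETV5 shares 164 exon bases on the same strand with DGKG, which held 720 counts on day 30 and 57.5 on day 0.

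Some feedback genes varied among the day 0 libraries and others did not. Of the 19 FGF pathway genes with a mean of at least 10 CPM on day 0, DUSP6 had the widest spread, its highest day 0 library being 2.48 times its lowest, followed by IL17RD at 1.97 times, SPRY4 at 1.61, ETV5 at 1.61 and FGFR3 at 1.59. Over all 10356 genes at that level the median was 1.23 times and the 90th percentile 1.54. The other feedback inhibitors lay near that median, with SPRY1 at 1.07 times, SPRED1 at 1.13, SPRED2 at 1.23 and SPRY2 at 1.28, and ETV1 and ETV4 lay at 1.40 and 1.38. In DUSP6, IL17RD, SPRY4 and ETV5 replicate 1 was the lowest day 0 library, while FGFR1 and FGFR2 were highest in it. Replicate 1 was lowest for 10 of the 19 genes and for 5125 of the 10356. DUSP5, an ERK-induced phosphatase outside the set and named after its values were seen, had 16.4, 33 and 42.3 CPM in day 0 replicates 1 to 3, while EGR1, an early ERK target, had 8.25, 3.04 and 5.14 CPM. With 3 libraries this is a description, and its source was not tested.

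**Figure D4:**
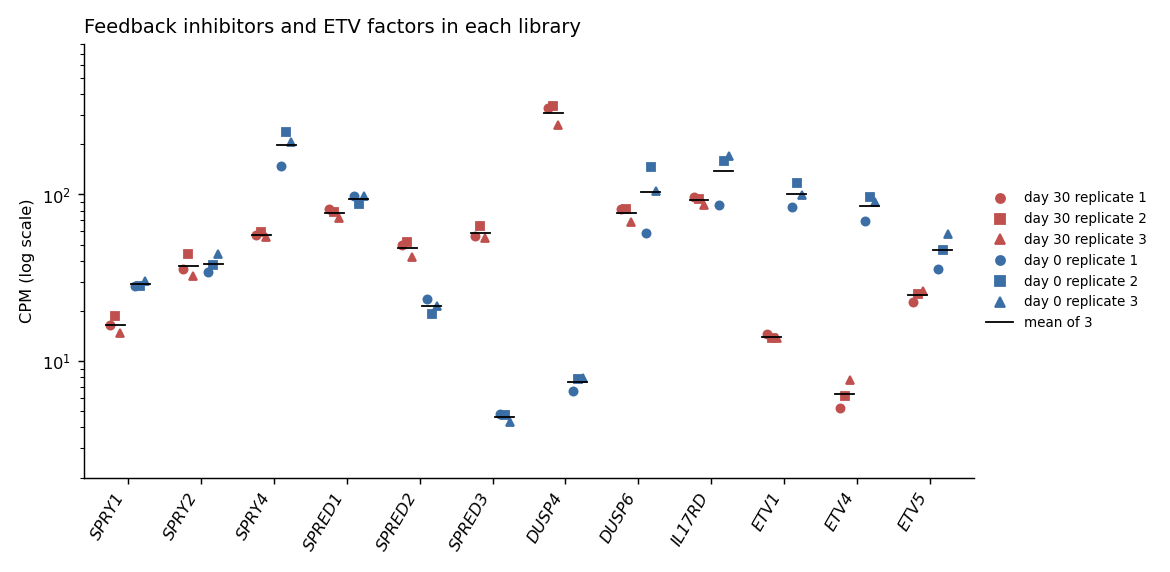
CPM of 12 feedback inhibitors and ETV factors in each library on a log scale, day 30 (red) left of day 0 (blue), with the mean of 3 libraries as a line. DUSP4 and SPRED3 sit far higher on day 30, the ETV factors lower, and the day 0 circles (replicate 1) lie below the other day 0 points for DUSP6, IL17RD, SPRY4 and ETV5.

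Some members varied across the day 30 libraries, as did the mesenchymal markers. COL1A1, a collagen of connective tissue, had 82.4, 244 and 1710 CPM in day 30 replicates 1 to 3, and COL3A1 had 16, 71.1 and 850 CPM. FGFRL1, FGF5 and FGFR3 had their highest day 30 value in the same replicate 3, and FGF10 its lowest. They were picked with their values known, so nothing about a link to the markers is read from this. The untested SPRY3 (1.23, 0.301 and 0.188 CPM), FGF18 (2.56, 0.677 and 1.88 CPM) and FGF20 (0.615, 0.15 and 0.376 CPM) also varied widely. These were highest in day 30 replicate 1. FGFR3 held only 0, 4 and 5 reads in replicates 1 to 3, and FGF10 7 reads in replicate 3, the shallowest library. Among members with at least 10 CPM on day 30, ETV5, FGF12, FGF17 and FGFR1 were highest there too. DUSP4, DUSP6, ETV1, FGF2, FGF13, FRS2, IL17RD, SPRED1 to SPRED3, SPRY1, SPRY2 and SPRY4 were lowest there. The share of all genes highest in replicate 3 was not counted. FGF9 was also highest in replicate 3. Of the 20 tested genes with a mean of at least 10 CPM on day 30 it had the widest spread there, its highest library being 1.79 times its lowest, against a median of 1.20 and a 90th percentile of 1.49 over all 10677 genes at that level. FGFRL1, FGF5, FGFR3 and FGF10 lie below that level. Without that library, the log2 change of FGFRL1 was −2.11 (adjusted p = 1.59e-05), that of FGF5 2.27 (0.0153), that of FGFR3 −7.54 (2.79e-07), that of FGF10 3.86 (0.000212) and that of FGF9 7.36 (2.11e-07), so each call held. Of the 8 mesenchymal and neural crest markers, COL1A1, COL1A2 and COL3A1 passed as higher on day 30, but their ranges overlapped those of day 0. COL1A1 had 82.4 CPM in day 30 replicate 1, against 91.3 to 117 CPM on day 0. FOXD3 was lower with no reads on day 30, and TWIST1 and TFAP2B held at most 1.13 CPM there. Of the 7 astroglial markers, 3 of 4 tested were lower on day 30 and GFAP held at most 0.717 CPM there, while SLC1A2, which neurons can also express, was higher. The part of any of these cells in the members' values was not tested.

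**Figure D5:**
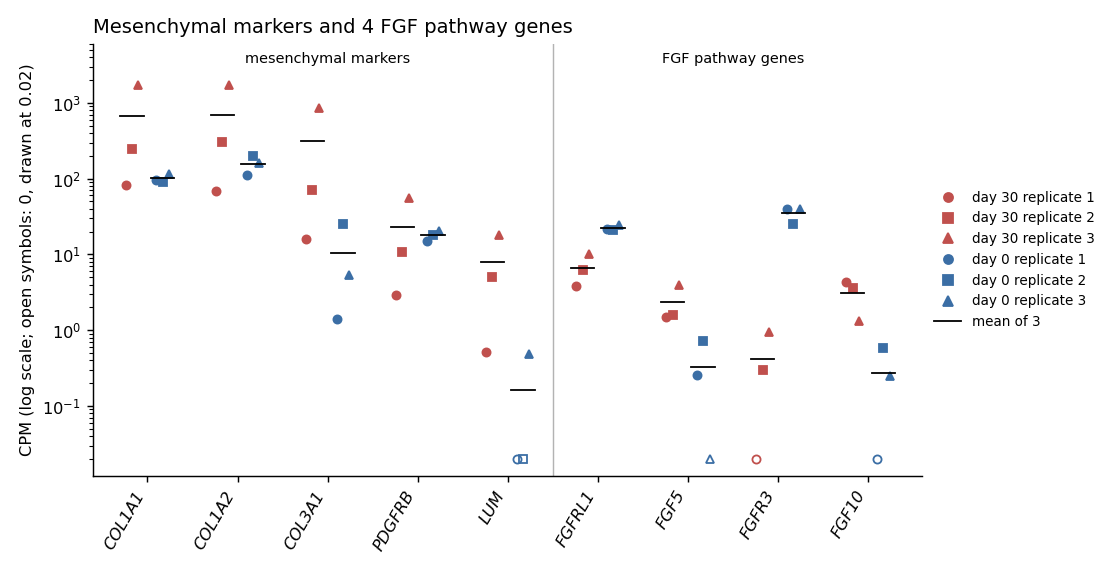
CPM of 5 mesenchymal markers and 4 FGF pathway genes in each library on a log scale, day 30 (red) left of day 0 (blue), with the mean of 3 libraries as a line; a value of 0 is drawn at 0.02. Day 30 replicate 3 (triangles) is highest for the 5 markers, FGFRL1, FGF5 and FGFR3, and lowest for FGF10. The 4 genes were picked with their values known, and other variable members are not drawn.

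The rest of the pathway was read on lists of 78 genes, of which 71 were tested and 36 were higher and 20 lower on day 30 (78.9%, near the 76.6% of all genes). Among co-receptors and FGF-binding proteins 5 of 9 tested were higher and 2 lower (median log2 change 1.64). NCAM1, a neural adhesion protein that binds FGF receptors, stood at 624 ± 39.2 CPM on day 30, against 5.91 ± 2.29 CPM on day 0 (log2 change 6.73 ± 0.24, adjusted p = 2.75e-09). FGFBP2 had no reads on day 30 and was at least 46.2-fold lower there, against a floor of 3 counts over the group (adjusted p = 2.05e-05). The klotho co-receptors of hormone-like FGFs were scarce, with KL at 22 reads on day 30 and 1 on day 0 and KLB at 1 read on day 30 and none on day 0, and neither was tested.

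Among heparan sulfate proteoglycans and the enzymes that build and trim the sugar chains, 11 of 21 tested genes were higher and 6 lower (median 0.38). GPC4, a cell-surface proteoglycan of the glypican family, had the largest fall, with 20.9 ± 9.23 CPM on day 30, against 715 ± 52.9 CPM on day 0 (log2 change −5.08 ± 0.28, adjusted p = 5e-08). NDST4, an enzyme that sulfates heparan chains, had 33.4 ± 1.25 CPM on day 30 and no reads on day 0, at least 253-fold higher against the floor of 3 counts over the group (adjusted p = 2.46e-08). The RAS, ERK and phospholipase relay had a median of 0.00, with 9 of 21 tested genes higher and 6 lower. KSR2, a scaffold of the ERK cascade in neurons, had 82.2 ± 18 CPM on day 30 and 5.79 ± 2.34 CPM on day 0 (log2 change 3.82 ± 0.26, adjusted p = 2.28e-07). SHC1, an adaptor of receptor kinases, had 50.1 ± 4.57 CPM on day 30 and 203 ± 14.1 CPM on day 0 (log2 change −2.02 ± 0.12, adjusted p = 6.5e-08).

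Of 12 tested genes outside the set that ERK induces, 5 were higher and 4 lower (median −0.15). FOS, an immediate early gene that neuronal activity also induces, had 32.8 ± 6.41 CPM on day 30 and 5.83 ± 1.35 CPM on day 0 (log2 change 2.51 ± 0.21, adjusted p = 1.2e-06). FOSL1, its relative, had 1.60 ± 0.274 CPM on day 30 and 8.63 ± 0.801 CPM on day 0 (log2 change −2.45 ± 0.26, adjusted p = 7.5e-06). These genes, like the feedback inhibitors of the set, did not share 1 direction.

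The 11 genes that were not tested were FGF3 and FGF6, with no reads in any library, and FGF4, FGF7, FGF8, FGF18, FGF20, FGF21, FGF22, FGF23 and SPRY3. FGF7 had 4 reads on day 30 and none on day 0, which the floor of 3 counts does not separate. FGF18, a ligand of the FGF8 subfamily, had 2.56, 0.677 and 1.88 CPM on day 30, against 0.381, 0.434 and 0.735 CPM on day 0. With no filter on low counts FGF18 and SPRY3 passed as higher (adjusted p = 0.00944 and 0.0318) and FGF4 and FGF8 as lower (7.76e-06 and 0.0313). Adjusted p-values of that edgeR fit are not comparable with those of the main test. At nearly the same log2 change, FGF1 had 4.34e-15 there against 0.000418, and SPRED1 0.11 against 0.0316. The fasting hormone FGF21 had 1 read on day 30 and 5 on day 0, and the phosphate hormone FGF23 had 1 read on day 30 and 8 on day 0. FGF22, which organises synapses in mice, had 4 reads on day 30 and 7 on day 0, and FGF20 had 10 reads on day 30 and 2 on day 0. None of FGF7, FGF20, FGF21, FGF22 and FGF23 passed in the edgeR fit with no filter, with adjusted p from 0.0862 to 0.467. The 95% counting interval for FGF23, day 0 over day 30, was 1.33 to 439 and left out 1. Those of FGF20 (day 30 over day 0, 0.862 to 38) and FGF21 (day 0 over day 30, 0.692 to 292) included 1. These intervals cover counting error only.

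Several of the genes lie near each other. Within 1 Mb, FGF19, FGF4 and FGF3 follow each other on chromosome 11, FGF23 and FGF6 are 48.4 kb apart on chromosome 12, SPRY4 and FGF1 266 kb apart on chromosome 5, FGF2 and SPRY1 499 kb apart on chromosome 4, and FGFRL1 and FGFR3 766 kb apart on the same chromosome. In the 3 pairs where both genes were tested, SPRY4 with FGF1, FGF2 with SPRY1 and FGFRL1 with FGFR3, both genes were lower on day 30. With 15 of the 31 tested genes and 36.8% of all genes lower, nothing about neighbours is read from this.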

How the data were processed

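RNA of 6 libraries (3 of day 30, 3 of day 0) was measured by sequencing. Per the labels' protocols, total RNA was depleted of ribosomal RNA, made into stranded TruSeq libraries and sequenced on an Illumina NovaSeq. Per the submitters' processing notes, FastQC 0.11.9 and the build hg38 were used. The aligner, counter, annotation and strand setting were not given in the sources used here. Reads of overlapping antisense genes therefore cannot be told apart. The authors deposited expected counts per gene, some with fractions of a read (92.6% of values are whole). The plan assumed whole counts, so values were rounded for the tests. Entries with no gene symbol were kept. Unused columns of values numbered 0. Positions, types and exon lengths come from GENCODE 29 (94.2% of 61853 entries matched).

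Day 30 was tested against day 0 in R 4.3.3 with edgeR 4.0.16 (quasi-likelihood test, TMM, filterByExpr with a minimum count of 10; 18040 genes; Benjamini-Hochberg adjusted p under 0.05; 2-sided). The biological coefficient of variation was 0.153. Standard errors are approximate, the absolute log2 change over the square root of F. The fit was tested on simulated data with 200 of the 18040 genes changed. Most genes differ in the real data, so the simulation does not check the scaling or error rates there. Shares within a library were compared by exact permutation. Alternatives were other scalings, filters and rounding, DESeq2 1.42.0, a replicate block and leaving out each library. Named genes were all members, and in each pathway list the largest passing rise and fall. The members and lists were chosen with earlier results of these data known. Counting intervals and floors cover counting error only.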

Additional observations from a re-analysis of the deposited data

How the results depend on the processing

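Of 31 tested genes of the FGF pathway, 24 kept their direction and their side of the threshold under all 14 alternative settings, and FGF10 did under the 13 that tested it, as the stricter filter removed it. The counts of 12 higher and 15 lower ranged from 11 to 12 and from 13 to 16 with 1 library left out, were 13 and 17 with no filter on low counts, 11 and 15 with DESeq2, and 11 and 14 with the replicate block (where FGF16 and SPRED1 did not pass). The replicate block moved the counts over all genes to 6921 higher and 6415 lower, against 7186 and 6641, and changed no other call among the 31 genes. Same-numbered libraries of the days correlated in their deviations from the day's mean at only −0.05 to 0.07, and not every library correlated best with its own number, so the numbers were not taken as pairs. Signs turned only for FGF11, to 0.06 with total counts only and from −0.16 to 0.10 over the fits with 1 library left out, and for SPRY2, to 0.06 with total counts only and from −0.17 to 0.08 with 1 library left out. None of these values passed. With 1 library left out, calls were lost for FGF16, IL17RD and SPRED1 and gained for DUSP6 (without day 0 replicate 1). FGF18 held enough reads to be tested in some of these fits. It passed as higher without day 30 replicate 2 (adjusted p = 0.00377) or day 0 replicate 3 (0.0386). It did not pass without day 0 replicate 1 (0.0982) or day 0 replicate 2 (0.0851). DUSP6 also passed with no filter, at −0.42 (adjusted p = 0.0139), against 0.159 at the same −0.42 in the main fit. The difference in the FGFR1 share was 53.6 percentage points, 37.7 by counts and 46.3 with the longest transcript; that of the homologous factors was 55.4 and 61.5 by counts. With 1 library left out these stayed within 53.0 to 54.0 and 54.1 to 57.7 points, and the FGF2 share difference of −66.5 within −68.5 to −65.0. Total counts only moved the median log2 change of all genes to 0.17, against 0.08. Depth limits the 11 genes that were not tested.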

Other observations

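Of 10 non-coding genes named after an FGF pathway gene (antisense or intronic transcripts), 3 held enough reads to be tested, and all 3 differed between the days, where 76.6% of all genes tested did. SPRY4-AS1, which runs antisense across the region of SPRY4 and FGF1 and shares no exon base with SPRY4, had 13.7, 15 and 17.7 CPM on day 30, against 2.92, 4.05 and 1.59 CPM on day 0, for a log2 change of 2.44 ± 0.29 (edgeR adjusted p = 1.78e-05), while SPRY4 itself was lower on day 30. FGF13-AS1 went the other way, with 2.97, 1.95 and 2.63 CPM on day 30, against 6.98, 11.1 and 7.35 CPM on day 0, for a log2 change of −1.76 ± 0.29 (adjusted p = 0.000227), while FGF13 was higher on day 30. It shares 167 exon bases with FGF13. FGF14-IT1, which lies in an intron of FGF14 on the same strand, had 15.4, 16.7 and 18.6 CPM on day 30, against 1.02, 0.579 and 0 CPM on day 0, for a log2 change of 4.97 ± 0.46 (adjusted p = 2.48e-06), in the same direction as FGF14.

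FGF14-AS2 held 9 reads on day 30 and 32 on day 0, and the other 6 held at most 8 reads on either day. Without the strand setting of the counts, reads of an antisense gene and its partner cannot be told apart. Other entries inside FGF14 on its strand also held more counts on day 30, such as RPL39P29 (54 on day 30, 0 on day 0) and MIR4705 (42 and 0). The part of unspliced FGF14 RNA in FGF14-IT1 was not tested.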
